A study of Homo sapiens with 7 samples.

Results

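The places where GATA6 and HNF6 were both called on the genome of pancreatic progenitors at day 10 differed in which of the factors gave the stronger peak. Regions of the GATA6 list and of the HNF6 list of day 10 were joined wherever they overlapped by 1 bp or more, which gave 6215 shared loci out of the 86081 regions in the 4 peak lists of the series. Each locus kept its highest GATA6 and highest HNF6 score, and each score was turned into a percent rank within its whole list, from near 0 for the weakest peak to near 100 for the strongest. Loci with a GATA6 percent rank of at least 75 and an HNF6 percent rank of at most 25 are called GATA6-high here (176 loci, 2.83% of shared loci), and the reverse are called HNF6-high (725 loci, 11.7%). Loci at 75 or above in both lists are called both high (1045 loci, 16.8%), loci at 25 or below in both are called both low (264 loci, 4.25%), and 4005 loci fell in between.

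All libraries came from CyT49, an established human embryonic stem cell line, taken through stepwise differentiation towards pancreas. Chromatin immunoprecipitation followed by sequencing (ChIP-seq) was made with antibodies named in the labels as GATA6 at day 10, HNF6 at day 10, HNF6 at day 5 and NKX6.1 at day 13, with 1 library each. The labels give day 5 as gut tube endoderm, put day 10 at a stage abbreviated PE and elsewhere call it NKX6.1-positive pancreatic progenitors, and abbreviate the day 13 stage PP. The protocol text names an NKX6.1 antibody for every library, including those whose antibody label is GATA6 or HNF6, so the antibody labels were followed for these. The antibody label of the day 13 input library also reads NKX6.1, and that library was taken as an input by its title. With 1 library per factor and day there is no replicate spread, no p-value is given, and intervals below (Wilson for a share, Newcombe for a difference, 95%) cover counting error over loci only; loci of 1 library are not replicates of a condition. The input libraries were not analysed here, and the identity of the cells was not tested.

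GATA6 is a zinc finger transcription factor that binds DNA around the letters GATA. It acts early in endoderm, and heterozygous loss in humans can leave the pancreas small or absent. HNF6, encoded by ONECUT1, carries a cut domain and a homeodomain, and it helps to switch on PDX1 and later NEUROG3 in the embryonic pancreas. NKX6.1, another homeodomain protein, marks progenitors that can form endocrine cells and remains in beta cells.

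The shared loci were a partial view of GATA6 and a small share of HNF6. The GATA6 list held 6285 regions, while the numbers in its peak names ran to 19404, so 32.4% of the numbered peaks were listed, with 20.1% to 38.0% listed on each of 23 chromosomes. All of the 6285 listed regions (100%) overlapped an HNF6 region of day 10; the way the listed regions were picked is unknown here, and this overlap is not read as a result. HNF6 had 64919 regions, of which 9.66% overlapped a listed GATA6 region. Peaks absent from the GATA6 list could not be ranked, so an HNF6 region outside the shared loci is not a region without GATA6.

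Promoter sequences are shown for 3 genes with a locus at the start, 1 of each class, as examples. Gene names here and below rest on hg19 gene positions written from general knowledge and rounded to 1 kb, since no hg19 annotation was used here. They were checked against RefSeq as the processing account describes. A locus is called near a gene when it lies within 100 kb of it. Only the genes placed in this way could be named, and the nearest gene was not determined. A named gene may thus not be the nearest, and it is not a shown target. A locus is placed at a start when it lies within 1 kb of it. NR5A2 encodes a nuclear receptor of the embryonic and exocrine pancreas and had a GATA6-high locus at its start. HNF4A encodes a nuclear receptor of liver, gut and pancreas and had a both high locus at its start, and NOTCH1, a receptor for signals between neighbouring cells, had an HNF6-high locus there. The 250 bases before each start are printed 5′ to 3′ on the strand of the gene, from RefSeq (GRCh38.p14), with matches in capitals. The GATA letters searched were AGATAA and, as a second form of the site, TGATAA. The HNF6 letters searched were ATTGAT, both strands were read, and no matches overlapped in these sequences. NR5A2 lies at chr1:200027460-200027709 on the plus strand, HNF4A at chr20:44355449-44355698 on the plus strand and NOTCH1 at chr9:136546049-136546298 on the minus strand.
NR5A2: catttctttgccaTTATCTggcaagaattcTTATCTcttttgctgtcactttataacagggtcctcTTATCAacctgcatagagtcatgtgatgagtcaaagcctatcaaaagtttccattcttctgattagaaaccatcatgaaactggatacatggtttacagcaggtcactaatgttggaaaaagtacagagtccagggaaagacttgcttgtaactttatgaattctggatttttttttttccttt
HNF4A: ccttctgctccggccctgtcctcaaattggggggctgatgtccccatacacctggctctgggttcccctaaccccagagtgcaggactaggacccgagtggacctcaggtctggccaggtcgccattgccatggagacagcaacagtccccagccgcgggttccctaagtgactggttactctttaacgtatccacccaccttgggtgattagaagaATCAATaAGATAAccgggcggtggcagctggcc
NOTCH1: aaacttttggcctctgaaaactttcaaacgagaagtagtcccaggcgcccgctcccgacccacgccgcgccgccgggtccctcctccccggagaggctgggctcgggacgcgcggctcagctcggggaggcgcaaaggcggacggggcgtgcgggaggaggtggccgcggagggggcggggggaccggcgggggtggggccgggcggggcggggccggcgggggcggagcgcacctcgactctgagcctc

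The NR5A2 sequence held 3 GATA matches and 0 HNF6 matches. Its locus (chr1:199996315-199996822, hg19) scored 681 for GATA6 and 41 for HNF6. The HNF4A sequence held 1 match of each kind, separated by a single base, and its locus (chr20:42984129-42984532) scored 237 and 1072. The NOTCH1 sequence held 0 of either, and its locus (chr9:139440412-139441314) scored 41 and 1233. The letters searched are mostly A and T, and GC content was 36% for NR5A2, 58.4% for HNF4A and 76% for NOTCH1. SEMA3C (36.4%) and TGFBR2 (40.8%), each with an HNF6-high locus at the start, held no match. The part of base composition in these counts was not tested. Among 27305 promoters of the same length, not matched in GC content, 14.9% held a GATA match, 0.264% held 3 or more, and 5.69% held an HNF6 match. These matches are descriptions of letters, the peak and the printed bases come from different genome builds, and whether the bases lie inside the peaks was not tested. NR5A2 and HNF4A were chosen because they held matches: of the 11 promoters with a GATA6-high, HNF6-high or both high locus at the start, the other 9 held neither motif, among them all 7 with an HNF6-high locus. These promoters were looked at after the loci were known.

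Peak scores of the factors were only loosely related across the shared loci. Spearman's rho between the authors' GATA6 and HNF6 scores was 0.19 over 6215 loci, which share the same pair of libraries. Loci of the GATA6 list lay mostly high in the HNF6 ranking: 3663 loci (58.9%) had an HNF6 percent rank of at least 75 and 828 (13.3%) one of at most 25. For GATA6 the counts were 1561 and 1494. The ranking fixes these near 25% each, since all listed GATA6 regions lie in shared loci. HNF6-high loci made up 11.7% of shared loci (10.9% to 12.5%) and GATA6-high loci 2.83% (2.45% to 3.27%). The ranks of HNF6 were taken over its whole list, most of which lay outside the shared loci. With ranks taken among the shared loci alone there were 315 GATA6-high and 271 HNF6-high loci, and the order of the sizes turned.

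**Figure D1:**
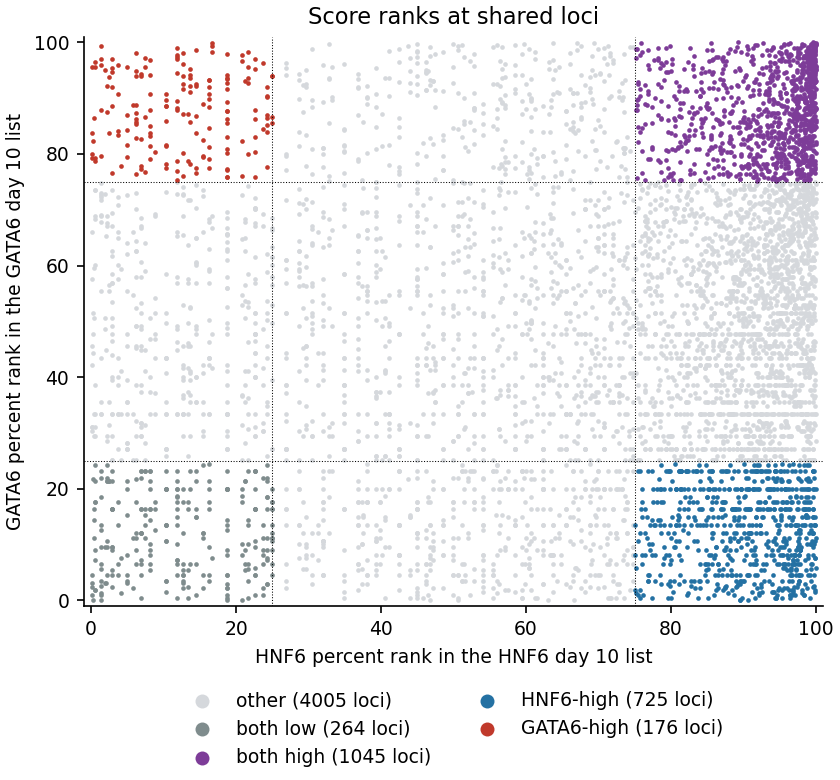
Each point is 1 of 6215 shared loci, with the HNF6 percent rank on the x axis and the GATA6 percent rank on the y axis; dotted lines mark percent ranks of 25 and 75 and colours the classes. The 1045 both high loci crowd the upper right corner, while the 176 GATA6-high loci are spread thinly at the upper left.

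The chosen classes differed in scores by construction, and these values are descriptions. GATA6-high loci had a median GATA6 score of 435 (232 to 3082) and a median HNF6 score of 34 (13 to 48). HNF6-high loci had 41 (14 to 55) and 445 (167 to 3635). At the limits, a GATA6 score of 230 lay just inside the high class and 229 just outside, and 55 just inside the low class and 56 outside; for HNF6 the values were 167 and 166, and 48 and 49. Scores are whole numbers of unstated unit, so they were compared within a list by rank only.

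The distance between peaks is limited by the pairing, since the regions had to overlap, and is given as a description. The median distance between the GATA6 and HNF6 midpoints was 72 bp at GATA6-high loci, 66.5 bp at HNF6-high loci, 55.5 bp at both high loci and 79 bp at both low loci. By class medians, the stronger peak was the wider one. At GATA6-high loci the median width was 421 bp for GATA6 and 237 bp for HNF6, and the HNF6 region lay wholly inside the GATA6 region at 57.4% of loci. HNF6-high loci showed the mirror image, with 220 bp for GATA6 and 427 bp for HNF6 and the GATA6 region inside the HNF6 region at 63.7%. Most loci were simple, with exactly 1 region of each factor at 6095 of 6215.

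The GATA6-high loci with the largest rank difference lay near genes of several kinds. The largest difference was in FAM161B (chr14:74411834-74412202), with scores of 2019 for GATA6 and 17 for HNF6. RBMS3, an RNA-binding protein gene, held chr3:29724979-29725474, with scores of 1023 and 17, and this locus also carried an NKX6.1 region. DSP encodes the desmosome protein desmoplakin and held chr6:7561319-7561875, with 1014 and 22. FOXC1, a forkhead factor gene of mesoderm and neural crest, lay within 20 kb of chr6:1597346-1597976, with 820 and 22. Of the 10 loci in this set, 5 lay inside a gene that was placed and 2 had no placed gene within 100 kb. Genes that were not placed were not searched. The HNF6 scores of all 10 were between 13 and 23 and their GATA6 scores between 784 and 2019.

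The HNF6-high loci with the largest difference had GATA6 scores of 15 to 22 and HNF6 scores of 1136 to 2935. The first lay within 100 kb of CD83, a surface protein gene of immune cells, at chr6:14183259-14183792, with 15 for GATA6 and 1676 for HNF6. DGKB, a diacylglycerol kinase gene, held chr7:14428991-14429693, with 19 and 2750. TCF12, which encodes a partner of tissue-specific bHLH factors, held chr15:57321912-57322658, with 22 and 2410. The locus at the start of TAF4, a subunit gene of the general transcription factor TFIID, scored 17 and 1154 (chr20:60641126-60641869). NKX6.1 regions lay at 4 of these 10 loci and at 1 of the 10 in the GATA6-high set, counts too small to compare.

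Where both factors were strongest, the locus with the highest mean rank lay inside SEMA3A, a guidance cue for axons and vessels (chr7:83807179-83807764), with scores of 3651 and 3818. It was also called for NKX6.1 at day 13 and for HNF6 at day 5. CDH18, a cadherin gene, held chr5:19880508-19881846 with 2504 and 3166, and IRX2, a homeobox gene, lay within 100 kb of chr5:2802817-2803374 with 2327 and 3864; both were called for NKX6.1. KIAA0825 held the highest GATA6 score of any shared locus, 4394, with an HNF6 score of 2067 (chr5:93621672-93622251). HNF6 regions of day 5 lay at 3 of these 10 loci.

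**Figure D2:**
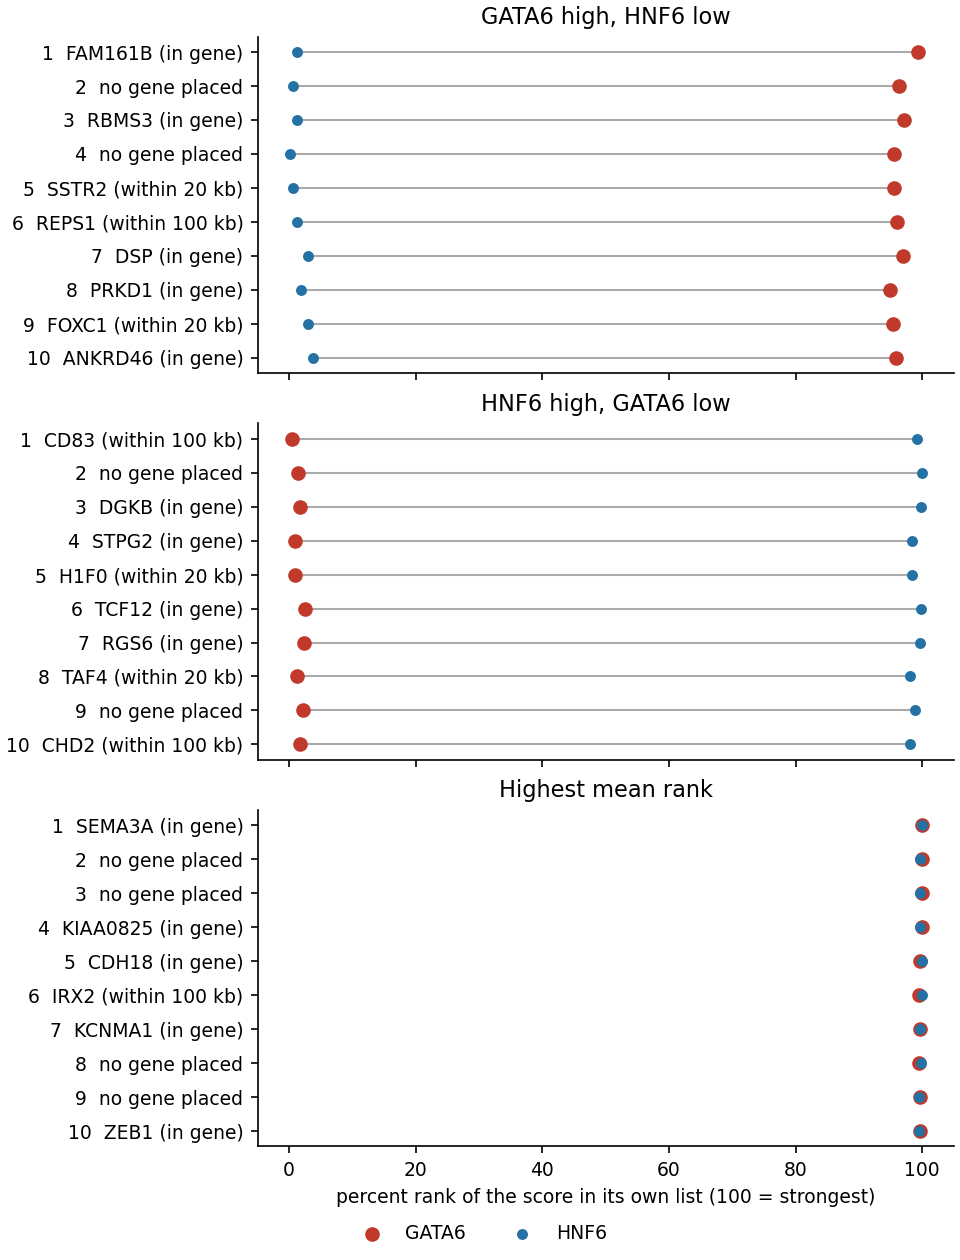
Percent ranks of GATA6 (large red points) and HNF6 (small blue points) at the 10 loci with the largest difference in each direction and the 10 with the highest mean rank, each with a gene placed inside or near it where there was 1. In the upper panels the points stand at opposite ends of the axis because the loci were chosen for it; in the lowest panel they coincide near 100.

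Genes of pancreatic progenitors had loci of every class around them. The list of progenitor transcription factors held 31 genes, of which 26 had 82 shared loci within 100 kb: 5 GATA6-high, 14 HNF6-high and 19 both high. These were 6.098%, 17.1% and 23.2% of the loci, beside 2.83%, 11.7% and 16.8% of all shared loci. The median rank difference (GATA6 minus HNF6) was -20.3 points, beside -21.3 points over all shared loci. No test of the list was made, and genes with long introns have longer windows.

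GATA6-high loci in this list lay near FOXA1 and FOXA2 (forkhead factors that open chromatin in endoderm), HES1 (a NOTCH target that holds progenitors undifferentiated), MEIS2 (a homeodomain cofactor) and NR5A2. FOXA1 had scores of 266 for GATA6 and 16 for HNF6 (chr14:38036226-38036778). FOXA2 had 547 and 36 (chr20:22492457-22493389), with an NKX6.1 region. At HES1 the scores were 414 and 35, and at MEIS2 445 and 33. In each of the 5 the HNF6 percent rank was under 20, so the HNF6 peak was present and weak.

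HNF6-high loci lay near 13 genes of the list, among them ONECUT2 and ONECUT3 of the ONECUT family but not ONECUT1. For ONECUT2, ONECUT3 and NKX6-2 the shift between genome builds could not be matched to a neighbouring gene. ONECUT3 had loci with 32 and 2689 (chr19:1718677-1719288) and with 43 and 3023 inside the gene (chr19:1755148-1756217), and ONECUT2 had 37 and 364. SOX9, a keeper of the progenitor pool, had 26 for GATA6 and 1658 for HNF6 (chr17:70072030-70072850). MNX1, needed for the dorsal pancreatic bud, had 21 and 988 (chr7:156806503-156807029). NR2F2, a nuclear receptor gene, had 53 and 2108. NKX6-1 had 26 and 360 at a locus that also carried an NKX6.1 region (chr4:85354634-85355167). PDX1, the factor without which the pancreas does not form, shared a locus with its neighbour CDX2 at 42 and 195. The remaining 6 were near FOXA2, NKX6-2, GATA4, GLIS3, HHEX and KLF5, with GATA6 scores of 23 to 53.

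Several genes of the list had both high loci. GATA4, which overlaps with GATA6 in function, held loci of 1301 and 2060 and of 1129 and 1216, beside an HNF6-high locus of 51 and 193 in the same gene. Near PDX1, both high loci of 655 and 2118 and of 476 and 640 stood within 20 kb. GATA6 itself had 5 loci, of which 1 was both high (502 and 1257), and the other 4 had higher ranks for GATA6 than for HNF6 without meeting the limits of the GATA6-high class. ONECUT1, the HNF6 gene, had 3 loci, all with a higher rank for HNF6, and 1 of them both high (268 and 1342).

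Both directions could occur at a single gene. Around FOXA2, 10 loci lay within 100 kb of the gene, and 1 of them was GATA6-high (547 and 36), 1 HNF6-high (45 and 1263, chr20:22543555-22544220), 1 both high (330 and 721) and 1 both low. The GATA6-high and HNF6-high loci were 51.0 kb apart. MECOM, a zinc finger gene on the acinar list, had 11 loci, among them a GATA6-high locus of 735 and 41 with NKX6.1 (chr3:169107291-169107743) and an HNF6-high locus of 50 and 443 (chr3:169231398-169231967), both inside the gene. Over the genome, 15 pairs of opposite loci stood within 100 kb of each other, 5.52 kb to 98.3 kb apart with a median of 38.5 kb. These pairs were looked for after the classes were known. They involved 12 of 176 GATA6-high (6.82%) and 13 of 725 HNF6-high loci (1.79%). The share of all shared loci with such a neighbour was not computed, so these counts are not read as a feature of the classes. The closest pair, outside the FOXA2 window on chromosome 20, scored 489 and 33 on one side (chr20:22392080-22392629) and 25 and 685 on the other (chr20:22397670-22398076). In PRKD1 the pair was 12.6 kb apart and in RBMS3 18.2 kb.

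The WNT and NOTCH list and the BMP, TGF-beta, FGF and hedgehog list had HNF6-high and both high loci but no GATA6-high loci. That depended on how genes were listed: HES1, a NOTCH target with a GATA6-high locus, was counted on the progenitor list. The retinoic acid and YAP list, given below, had 1 GATA6-high locus. The numbers were too small to set apart from all shared loci, of which 2.83% were GATA6-high and 11.7% HNF6-high. Near WNT and NOTCH genes, 34 loci included 0 GATA6-high, 6 HNF6-high and 8 both high, with a median difference of -26.5 points; NKX6.1 regions lay at 8 of them (23.5%, beside 12.6% of all shared loci). TCF7L2, a WNT effector and diabetes risk gene, had 51 for GATA6 and 673 for HNF6 at its start and 49 and 221 within the gene, the latter with NKX6.1. DKK1, a secreted WNT inhibitor, had 45 and 598, and LGR4, a receptor that enhances WNT signals, had 26 and 183. For NOTCH1, the locus at the start was described above, and HEY2, a NOTCH target, had 53 and 326. Near BMP, TGF-beta, FGF and hedgehog genes there were 51 loci, with 0 GATA6-high, 5 HNF6-high and 7 both high, and NKX6.1 regions lay at 4 of them (7.84%). TGFBR2, a TGF-beta receptor gene, had 25 and 513 at its start, DUSP6, a feedback inhibitor of FGF signals, 52 and 348 at its start, and INHBA, an activin subunit gene, 52 and 2276 at a locus also called for HNF6 at day 5. SHH, which is kept off in the pancreatic bud, had a both high locus of 265 and 978 with NKX6.1.

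Genes of other lineages had shared loci too, and their counts are to be read beside the shares over all shared loci (2.83% GATA6-high, 11.7% HNF6-high and 16.8% both high). Near liver genes there were 17 loci, 1 GATA6-high, 0 HNF6-high and 4 both high, with a median difference of -5.10 points; the GATA6-high locus lay near NR0B2, a repressor of bile acid synthesis, with 975 and 42. Heart and mesoderm genes had 24 loci, 0 in either contrasting class and 7 both high, with a median difference of -9.79 points. Of those, ZFPM2, a cofactor of GATA proteins, held 3 both high loci. Endocrine genes had 13 loci, with 0 GATA6-high and 2 HNF6-high, near RFX6 (30 and 438) and SLC30A8, the zinc transporter gene of insulin granules (49 and 1295). Duct genes had 14 loci with 0 in either contrasting class and 3 both high. Acinar genes had 18 loci (1 GATA6-high, 1 HNF6-high, 4 both high), of which 11 lay in or near MECOM, those of both contrasting classes included. Intestine and stomach genes had 14 (0, 1 and 5). Definitive endoderm genes had 7 (0, 2 and 2), and the HNF6-high loci among them were near OTX2 (54 and 1041) and GATA3 (37 and 1021). With so few loci a list, these counts set no list apart from all shared loci.

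The retinoic acid and YAP list had 21 loci, 1 GATA6-high, 1 HNF6-high and 3 both high. DHRS3, which reduces retinal and so limits retinoic acid, lay within 100 kb of the GATA6-high locus with the largest rank difference near any listed gene, at 996 and 30 (chr1:12714607-12715052). CRABP2, which carries retinoic acid to its receptor, lay near an HNF6-high locus of 34 and 445. RARB, a retinoic acid receptor gene, held both high loci of 1568 and 897 and of 544 and 1808, each with NKX6.1. Adhesion and guidance genes had 60 loci, 1 GATA6-high in LAMA1, a laminin chain gene (315 and 14), 6 HNF6-high and 11 both high. The HNF6-high loci included CDH2, the N-cadherin gene (29 and 731), EPHA4, an ephrin receptor gene (54 and 1404), and NRP1, a receptor for semaphorins (25 and 1051). SEMA3A and SEMA3C, which encode secreted semaphorins, each had an HNF6-high and a both high locus.

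Over all 12 lists, 167 of 295 placed genes had 350 loci, with 9 GATA6-high (2.57%), 37 HNF6-high (10.6%) and 74 both high (21.1%). The contrasting classes thus took shares near those over all shared loci. At the starts of listed genes with a known strand, there were 1 GATA6-high, 5 HNF6-high, 3 both high, 2 both low and 7 other loci, too few to set beside the shares over all shared loci; the both high starts were those of HNF4A, MEIS1 (328 and 1600) and BMPR1A (289 and 1192).

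**Figure D3:**
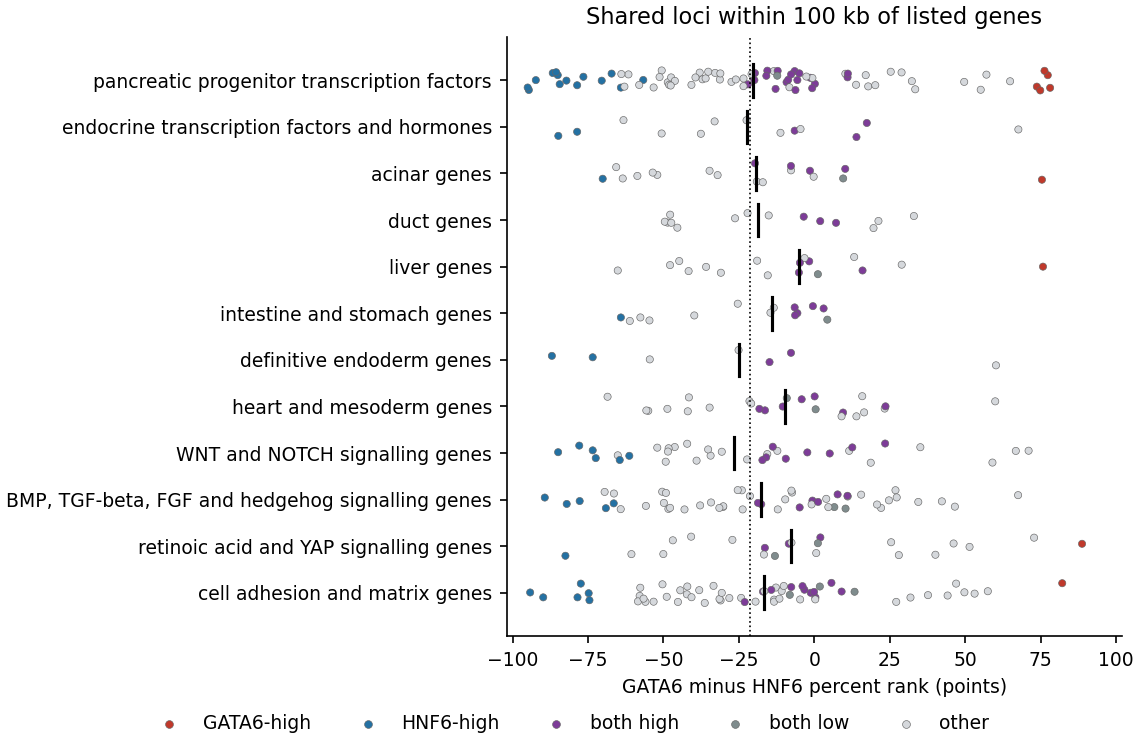
Each point is a shared locus within 100 kb of a gene of the list on the y axis, placed by its GATA6 minus HNF6 percent rank in points and coloured by class; black bars are list medians and the dotted line is the median over all shared loci. Red GATA6-high points are 9 over all lists, 5 of them in the progenitor list, and liver genes have the median nearest 0.

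NKX6.1 regions of day 13, which were not used to class the loci, were more frequent where GATA6 ranked high. How the listed GATA6 regions were picked is unknown, so whether NKX6.1 had a part in that choice cannot be told. NKX6.1 regions lay at 781 of 6215 shared loci (12.6%) and at 2.27% of the 58650 HNF6 regions without a listed GATA6 region. The latter were not matched to the shared loci in score or width, and both shares depend on which GATA6 regions were listed. The share was 17.05% at GATA6-high loci (30 of 176, 12.2% to 23.3%) and 10.2% at HNF6-high loci (74 of 725, 8.21% to 12.6%). The difference was 6.84 points (1.43 to 13.4). Both high loci had 20.96% (219 of 1045, 18.6% to 23.5%) and both low loci 3.41% (9 of 264, 1.80% to 6.35%). With the highest and lowest 10% of the ranks in place of 25%, the first difference turned to -5.29 points (-13.6 to 11.7) over 26 GATA6-high loci.

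Each ranking was then split into 4 bands of 25 points of percent rank. The higher NKX6.1 share with GATA6 rank held in 3 of 4 bands of HNF6 rank. From the lowest to the highest GATA6 band it went from 3.41% to 17.05% where HNF6 ranked in its lowest band, a difference of 13.6 points (7.98 to 20.1), and from 10.2% to 20.96% where HNF6 ranked in its highest band, 10.75 points (7.37 to 14.01). In the third HNF6 band the difference was 14.9 points (9.20 to 21.03), and in the second it was 2.35 points (-4.54 to 10.1). HNF6 rank went with the NKX6.1 share too. Within the bands of GATA6 rank, from the lowest to the highest, the difference between the highest and lowest HNF6 bands was 6.80 points (3.24 to 9.70), 5.93 points (1.37 to 9.41), 2.17 points (-3.73 to 6.63) and 3.91 points (-2.76 to 9.39), with the interval above 0 in 2 of 4. Between the highest and lowest HNF6 bands it was 5.94 points (3.55 to 8.04) over all loci, against 11.7 points (9.29 to 14.1) for GATA6. When ranks were taken among the shared loci these were 9.99 points (7.57 to 12.4) for HNF6 and 11.6 points (9.20 to 13.996) for GATA6, so the gap between the factors depended on how ranks were taken. In the classes above, stronger peaks had larger median widths. Counted over the central 200 bp of each locus, the differences were 9.24 points for GATA6 and 3.48 points (1.198 to 5.47) for HNF6 with ranks in the whole lists, and 9.34 and 7.42 points with ranks among the shared loci.

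**Figure D4:**
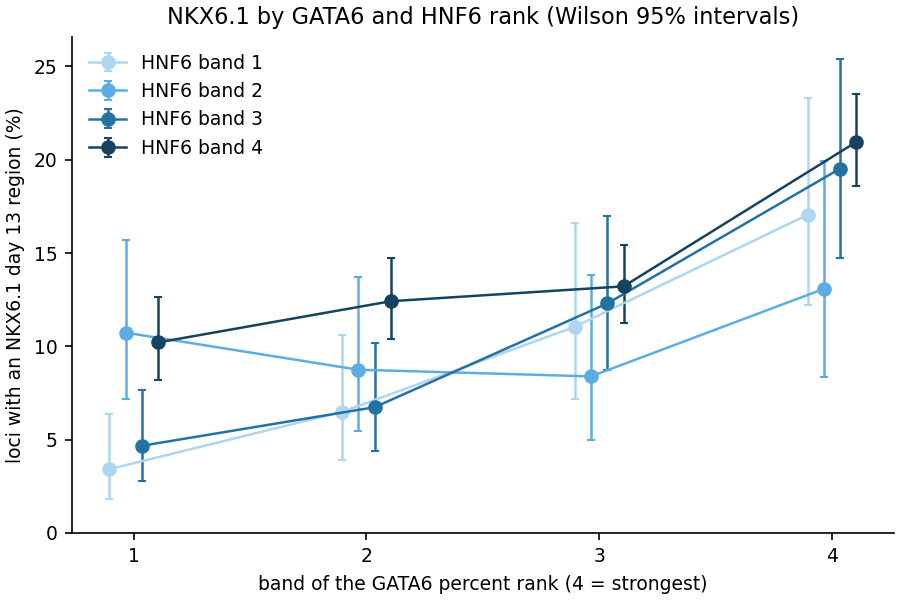
Share of shared loci with an NKX6.1 region of day 13 (y axis, percent) by band of the GATA6 percent rank (x axis, 4 is the strongest), with 1 line for each band of the HNF6 percent rank and Wilson 95% intervals for counting error. The shares rise from 3.41% to 17.05% along the lowest HNF6 line and from 10.2% to 20.96% along the highest, and the second line is flat within its intervals.

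Counted by locus, the NKX6.1 midpoint was not nearer to either factor beyond counting error. It was nearer to the GATA6 midpoint at 390 and nearer to the HNF6 midpoint at 347 of 737 loci with 1 region of each, or 52.9% (49.3% to 56.5%) nearer to GATA6. The shares were 14 of 29 at GATA6-high loci and 42 of 72 at HNF6-high loci, with intervals of 31.4% to 65.6% and 46.8% to 69.0%. Median distances were shorter to GATA6, at 54.5 bp against 69.5 bp to HNF6 over the 737 loci. They were 50.5 and 51.5 bp at GATA6-high loci and 53.75 and 75.75 bp at HNF6-high loci. No interval was made for these distances.

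HNF6 regions of day 5 were rare, at 68 of 6215 shared loci (1.09%), since the list of that day held 250 regions. None lay at the 176 GATA6-high loci, for which a limit of 3 counts allows a share of up to 1.70% and the Wilson interval up to 2.14%, and 13 lay at the 725 HNF6-high loci (1.79%, 1.05% to 3.04%). The difference was -1.79 points, with an interval of -3.04 to 0.468 that holds 0. It was -2.58 points (-5.23 to -0.791) with ranks among the shared loci and -1.66 points (-2.58 to -0.230) with limits at the outer 33.3% of the ranks, where the intervals lay below 0. Both high loci had 16 of 1045 (1.53%). Over all loci, day 5 regions lay at 54 of 3663 loci in the highest HNF6 band and at 3 of 828 in the lowest, a difference of 1.11 points (0.335 to 1.62). For GATA6 the bands had 16 of 1561 and 21 of 1494, a difference of -0.381 points (-1.21 to 0.417).

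A further HNF6 region of day 10 lay within 10 kb of 64.2% of GATA6-high loci (56.9% to 70.9%) and of 55.3% of HNF6-high loci (51.7% to 58.9%). The difference was 8.89 points (0.748 to 16.5) and shrank to 0.650 points when regions with scores under 50 were left out. Both high loci had 60.3% and both low loci 61.0%, so the shares of all classes lay within 10 points of each other.

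**Figure D5:**
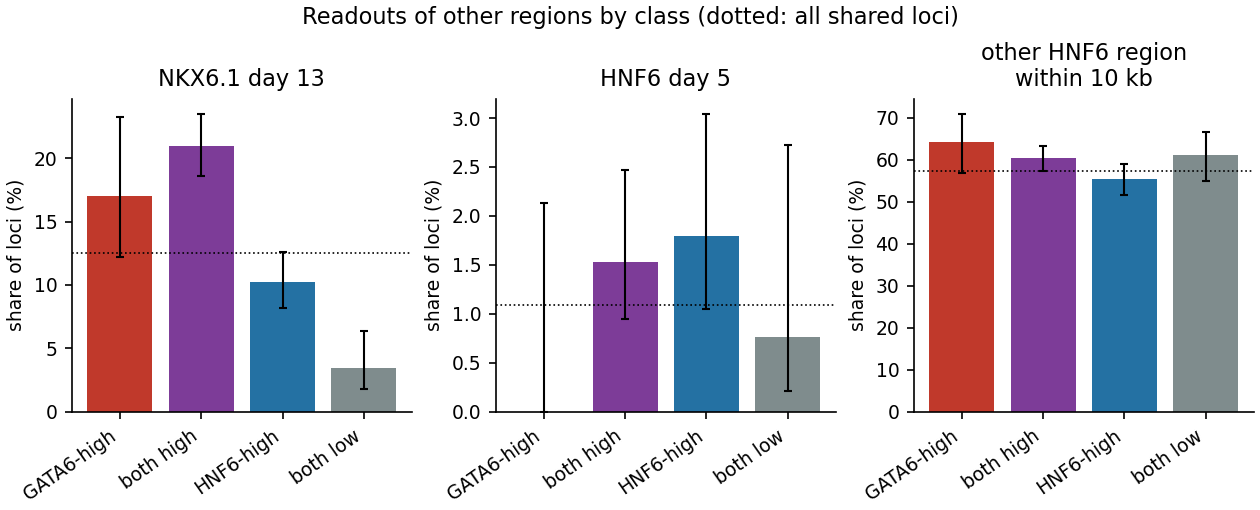
Share of loci in each class (y axes, percent) with an NKX6.1 region of day 13, an HNF6 region of day 5 or another HNF6 region of day 10 within 10 kb, with Wilson 95% intervals; dotted lines give the share over all shared loci. The GATA6-high bar is higher than the HNF6-high bar for NKX6.1, at 17.05% and 10.2%, and is at 0 for HNF6 of day 5. The classes use ranks in the whole lists. With ranks among the shared loci the NKX6.1 difference was 1.64 points (-4.12 to 7.24).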

How the data were processed

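ChIP-seq peak lists of GATA6 and HNF6 at day 10, HNF6 at day 5 and NKX6.1 at day 13 were used, 1 library each. The lists were deposited by the authors as regions with a peak name and a whole-number score, whose unit is not given. Bowtie2 2.3.4.1, MACS2 2.1.1.20160309 and hg19 are named without roles, per the submitters' processing notes. Read depth is unknown from these files. Rows with the same coordinates were merged and the highest score kept, so 6556 GATA6 rows gave 6285 regions and 66373 HNF6 rows gave 64919. Overlapping regions were joined into loci (6339 pairs, equal to the count from bedtools 2.31.1), and ties in score shared their mean rank. Positions are hg19, 1-based. Scripts used Python, pandas, scipy and statsmodels and were checked on simulated data.

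Members, gene lists and limits were chosen with earlier results of these data known. Loci were named by a rule: the 10 largest rank differences in each direction and the 10 highest mean ranks. The planned nearest gene start needs an hg19 annotation, which was not used here. In its place, hg19 positions of 325 genes were written from general knowledge after the files were seen, those of genes beside the strongest loci included, and compared with RefSeq GRCh38.p14 for chromosome, order and length. After a first comparison 4 positions were corrected and the length limit was widened to 25% to 110% of the RefSeq length (or within 1.5 kb). Of the 325 genes, 321 were used, 284 met the first limit of 10% or 1.5 kb, and none was out of order. For 285 genes the shift between builds matched that of a neighbouring gene within 5 kb; for ONECUT2, ONECUT3, NKX6-2, GATA3, DHRS3 and LAMA1 among others it could not be matched. Promoters and strands came from the RefSeq tables by symbol, with the strand known for 228 genes. 1 gene is not reported here.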

Additional observations from a re-analysis of the deposited data

How the results depend on the processing

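No paired analysis was possible because each group has 1 library and the labels carry no replicate numbers. The number of GATA6-high loci (176) was 81 with scores of at least 50, 315 with ranks among the shared loci, 291 with limits at the outer 33.3% of the ranks and 26 with limits at the outer 10%. The number of HNF6-high loci (725) was 271 with ranks among the shared loci, 1143 with the 33.3% limits and 154 with the 10% limits. The NKX6.1 difference between these classes (6.84 points) turned to -5.29 points with the 10% limits. The other 8 alternatives gave 1.64 points (with ranks among the shared loci) to 7.10 points, and the interval lay above 0 in 5 of 9. The difference in a further HNF6 region within 10 kb (8.89 points) was 0.650 points with scores of at least 50 and 0.599 points with the 10% limits. The NKX6.1 difference between the highest and lowest GATA6 ranks (11.7 points) was examined after the data were seen; it was 17.7 points with the 10% limits, 9.24 points in the central 200 bp and 8.22 points with NKX6.1 scores of at least 50. The causes were not tested, except that narrower limits leave fewer loci. The HNF6 day 5 difference was -2.58 to -1.30 points over 8. With genes whose shift between builds was matched, listed genes had 7 GATA6-high, 32 HNF6-high and 70 both high loci. Shares near gene starts, motif shares and base composition of the loci, and alternatives that leave out loci at gene starts, were planned and not run, since no hg19 annotation or sequence was used here.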

Other observations

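The chromosomes differed in class shares, a pattern noticed after the values were seen and not tested. On chromosome 22, 13 of 46 shared loci were HNF6-high (28.3%, 17.3% to 42.5%) and 0 were GATA6-high, beside 11.7% and 2.83% over all shared loci. On chromosome 20, with 126 loci, 22 were HNF6-high, 5 GATA6-high and 11 both high (8.73%, beside 16.8%). The GATA6-high locus within 100 kb of FOXA2 was among them, as was the one outside that window at chr20:22392080-22392629.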
